A study of Mus musculus with 24 samples.

Results

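MicroRNAs of mutant hearts treated with an shRNA were compared with those of wild-type hearts in 6 small RNA libraries, out of 24 samples in the whole series: 4 libraries of the shRNA group (replicates 5 to 8) and 2 wild-type libraries (replicates 2 and 3). All mice had the CD1 background and the same genotype entry, RLC-47K L6, and carried a human MYL2 transgene; MYL2 encodes the regulatory myosin light chain of heart muscle. The mutants (mutTg) carried the mutated human allele and the wild-type mice (wtTg) the normal one, so "wild type" here is a transgenic control and not a mouse without a transgene. The tested mutants received an AAV9 virus expressing the M7.8L shRNA through the jugular vein at 3 days of age. The wild-type mice received a control AAV9 virus that lacks this shRNA. Hearts were taken at 4 months of age. A further 3 mutant libraries with control virus and 2 libraries of untreated mutants, which got no virus, are set beside the comparison where they help to place a value. No source used here names the promoter of the transgene. The allele of each group was read from the sample names, since the genotype entry does not differ between groups.

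A microRNA is cut from a hairpin precursor into a mature RNA that guides Argonaute proteins to messenger RNAs, mostly by pairing of its seed, bases 2 to 8. MicroRNAs with one seed are grouped as a family because they can pair with the same sites. In heart muscle several microRNAs lie inside myosin genes. The gene of miR-208a lies in an intron of Myh6, the alpha (adult) myosin heavy chain of the mouse, that of miR-208b in Myh7, the beta (fetal) chain, and that of miR-499 in Myh7b. A rise of miR-208b with Myh7 is a known mark of stressed mouse hearts, and miR-21 is known from fibroblasts of the failing heart.

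The mature sequences of the microRNAs on which the comparison turns are shown with the seed in capitals (RefSeq, mouse build GRCm38.p6, 5′ to 3′). The myosin gene microRNAs come first. The seeds of miR-208a and miR-208b are identical, and that of miR-499 ends in another base. They are encoded on chromosome 14 (miR-208a and miR-208b) and chromosome 2 (miR-499).
miR-499-5p: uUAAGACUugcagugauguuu
miR-208a-3p: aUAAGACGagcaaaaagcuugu
miR-208b-3p: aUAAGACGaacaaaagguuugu
MicroRNAs whose level in mutants without shRNA was above wild type are shown next, from chromosome 11 (miR-21a) and the X chromosome (miR-221 and miR-222, which share a seed).
miR-21a-5p: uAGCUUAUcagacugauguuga
miR-222-3p: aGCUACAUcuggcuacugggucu
miR-221-3p: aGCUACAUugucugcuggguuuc
The next set had higher values in shRNA libraries than in wild type and stood among the smallest p-values. These are encoded on chromosomes 10 (let-7i), 11 (miR-22), X (miR-322) and 5 (miR-25), and no seed is shared among them.
let-7i-5p: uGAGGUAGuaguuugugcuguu
miR-22-3p: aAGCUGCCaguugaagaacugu
miR-322-5p: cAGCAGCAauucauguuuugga
miR-25-3p: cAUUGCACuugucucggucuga
The last set had lower values in shRNA libraries than in wild type. It holds 2 pairs with a common seed, miR-10a with miR-10b and miR-215 with miR-192. Their genes lie on chromosomes 1 (miR-30a and miR-215), 8 (miR-24, from the row mir-24-2), 11 (miR-10a), 2 (miR-10b) and 19 (miR-192).
miR-30a-5p: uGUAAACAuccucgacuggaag
miR-24-3p: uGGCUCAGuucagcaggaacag
miR-10a-5p: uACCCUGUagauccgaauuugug
miR-10b-5p: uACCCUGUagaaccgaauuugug
miR-215-5p: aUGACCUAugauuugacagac
miR-192-5p: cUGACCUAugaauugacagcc

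The values are FPKM, fragments per kilobase of transcript scaled to the mapped fragments of the library. Each row is a hairpin gene, written mir-208b and so on, and small RNA levels are given in kFPKM (1000 FPKM). The values were whole multiples of the worth of 1 read, so that read numbers could be recovered: 142021 to 313653 reads per shRNA library, and 163631 and 257738 reads in the wild-type libraries. Because the scaling by hairpin length was steep, 1 read counted as 25459 FPKM for a hairpin of 66 bases and as 1530 FPKM for one of 109 bases in shRNA library 5. FPKM were therefore compared only within a microRNA, and levels of different microRNAs only by reads. Of the 155 microRNAs tested, which had a mean of at least 10000 FPKM over the 11 libraries, 61 had a mean of at least 100 reads and 39 a mean under 10 reads. The microRNA mir-143, known from smooth muscle, took 47.3% to 54.1% of the reads of the shRNA libraries, against 53.0% and 48.1% in wild type. The heart muscle microRNAs mir-208a, mir-208b and mir-499 had reads in every library. The row mir-1-1 (mir-1a-1) had 2 to 6 reads per shRNA library and 0 and 6 in wild type, and mir-133a-2 had reads too. The other loci of these microRNAs, mir-1a-2 and mir-133a-1, which define heart muscle too, had none. Neural mir-124 and mir-9, each with 3 loci, had none either. Whether reads that match several loci were kept is not stated by the submitters, so these zeros do not show that a microRNA was absent.

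ShRNA replicate 8 stood apart from the other 3 shRNA hearts, and differences from wild type are given with and without it. In polyA RNA of the same hearts, a row named hMyl2 had 229, 420 and 317 FPKM in shRNA replicates 5, 6 and 7. It was listed at 0 in replicate 8, and also in the mutants without shRNA and the wild-type hearts, although by their names all of these carry a human transgene. Which sequence this row counts is therefore uncertain, and it does not check the labels. Nppa, the natriuretic peptide gene induced in stressed heart muscle, had 1162, 1033 and 2315 FPKM in shRNA replicates 5 to 7 and 42676 FPKM in replicate 8, against 1459, 3492 and 1316 FPKM in the wild-type hearts. The row for the shRNA was listed at 0 in every library. By the Y-linked gene Ddx3y in polyA RNA, shRNA replicates 5 to 7 were male and replicate 8 was female. Both wild-type hearts of the small RNA libraries were male. Within the shRNA group, sex and the other differences of replicate 8 therefore cannot be told apart. The wild-type heart with a polyA library alone, replicate 4, was female and had 1316 FPKM of Nppa. Untreated mutants 9 and 10, both male, had 17106 and 18518 FPKM of Nppa. The part of sex in the values of replicate 8 was not tested. All 3 control virus mutants were female, and of the untreated mutants with a small RNA library replicate 9 was male and replicate 11 female. Comparisons of control virus mutants with wild type or with shRNA replicates 5 to 7 are therefore between females and males.

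No microRNA passed the test against wild type. With all libraries, 0 of 155 microRNAs (0%) had a Benjamini-Hochberg adjusted p under 0.05 in limma, and the smallest adjusted p was 0.454. Without replicate 8 the number was again 0 of 155 (0%), with a smallest adjusted p of 0.235. An unadjusted p under 0.05 was found for 13 microRNAs (8.39%) with all libraries, 6 higher and 7 lower in shRNA hearts, and for 29 (18.7%) without replicate 8. The limma voom test on recovered reads, for the 116 microRNAs with a mean of at least 10 reads, also called 0 microRNAs, with unadjusted p under 0.05 for 10 with all libraries and 19 without replicate 8. The 95% interval of the log2 difference had a median width of 1.73 with all libraries and 1.56 without replicate 8, and it lay wholly within a 2-fold change for 62 and 65 microRNAs. For the other microRNAs the interval reached a 2-fold difference in at least 1 direction. The exact permutation test of a single microRNA, 4 against 2 libraries with 15 splits, cannot give a two-sided p below 0.133.

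The mutants without shRNA were compared with the same wild-type libraries. In the fit without replicate 8, the control virus mutants differed from wild type at 24 of 155 microRNAs (15.5%) and the untreated mutants at 16 (10.3%), by limma adjusted p. With replicate 8 in the shared estimate of the spread, both numbers were 0 (0% and 0%), with 35 and 27 microRNAs at an unadjusted p under 0.05; voom on recovered reads gave 9 and 2 of 116. With sex as a covariate and without replicate 8, 1 passed for control virus mutants (mir-208b) and 2 for untreated mutants (mir-208b and mir-499). The sex term then rests on untreated replicates 9 and 11 alone, and its part in the other calls was not tested further. Over the 25 microRNAs that passed in either comparison, the median absolute log2 difference from wild type was 0.280 for shRNA replicates 5 to 7 and 0.780 for replicate 8, beside 0.970 for control virus and 0.840 for untreated mutants. Over all 155 microRNAs these medians were 0.343, 0.556, 0.547 and 0.541. Replicates 5 to 7 did not overlap wild type at 11 of the 25, and at 61 of all 155. The comparisons share the wild-type libraries, and the 25 were chosen for a large distance of the mutants without shRNA, so these medians are a description.

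**Figure D1:**
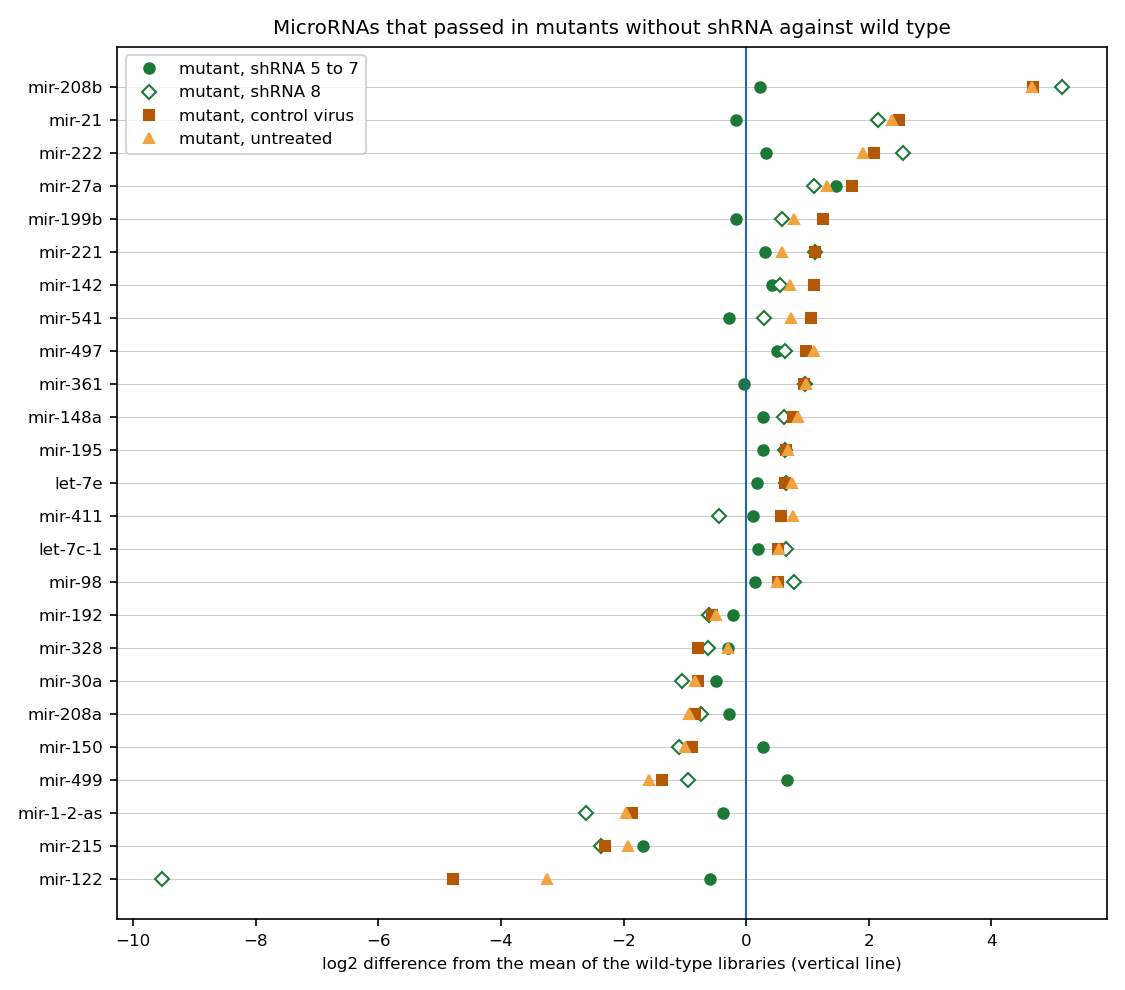
Log2 difference of log2(FPKM + 1000) from the mean of the wild-type libraries (x axis) for the 25 microRNAs that passed in control virus or untreated mutants against wild type without replicate 8 (y axis). Filled circles are the means of shRNA replicates 5 to 7, open diamonds replicate 8, squares the control virus mutants and triangles the untreated mutants; for mir-208b the circle is at 0.22 and the other 3 signs are at 4.66 to 5.15.

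Among the myosin gene microRNAs, mir-208b was near wild type in shRNA replicates 5 and 6, higher in replicate 7 and highest in replicate 8. It had 1620, 1616, 3561 and 64453 kFPKM in shRNA replicates 5 to 8, against 1961 and 1668 kFPKM in wild type. Replicates 7 and 8 were above both wild-type libraries, replicate 8 by 5.15 on the log2 scale from their mean, and the groups overlapped. Its log2 difference was 1.45 (95% interval -1.34 to 4.25, adjusted p = 0.602 in limma) with all libraries and 0.22 (-0.55 to 0.99, adjusted p = 0.71) without replicate 8. Control virus mutants had 56931, 37924 and 45382 kFPKM and untreated mutants, the first male and the second female, 43739 and 47605 kFPKM. The difference between shRNA replicates 5 to 7 and control virus mutants was -4.45 on the log2 scale (adjusted p = 3.8e-05 in limma), and -4.33 (adjusted p = 0.0344) with sex as a covariate. With all 4 shRNA libraries it was -3.22 (adjusted p = 0.154).

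In the host transcript, too, replicate 8 was the highest shRNA heart. Myh7 mRNA, measured in polyA libraries of the same hearts, had 205, 570, 615 and 4364 FPKM in shRNA replicates 5 to 8, against 319, 263 and 418 FPKM in 3 wild-type hearts. Its log2 difference was 1.19 (adjusted p = 0.327 in limma) and 0.34 without replicate 8 (adjusted p = 0.631).

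For mir-499, shRNA replicates 5 to 7 lay on the other side of wild type from the mutants without shRNA. It had 11039, 9218, 11057 and 3412 kFPKM in shRNA replicates 5 to 8, against 5774 and 7554 kFPKM in wild type. Replicates 5 to 7 were above both wild-type libraries and replicate 8 was below them. The log2 difference was 0.25 (-0.72 to 1.22, adjusted p = 0.812 in limma) with all libraries and 0.66 (0.23 to 1.08, unadjusted p = 0.00714, adjusted p = 0.235) without replicate 8. In the fit without replicate 8, control virus mutants were at -1.37 (adjusted p = 0.00322) and untreated mutants at -1.58 (adjusted p = 0.00305) from wild type; with all libraries these adjusted p were 0.106 and 0.187. With sex as a covariate and without replicate 8 they were at -0.85 (adjusted p = 0.364) and -1.32 (adjusted p = 0.0241). The host transcript Myh7b had 50.1, 70.6, 80.5 and 57.4 FPKM in the shRNA hearts, against 44.4, 49.4 and 49.4 FPKM in wild type, without overlap. Its log2 difference was 0.41 (adjusted p = 0.34 in limma) with all libraries and 0.46 (adjusted p = 0.389) without replicate 8. The median over all polyA genes tested was 0.34, or 0.21 without replicate 8.

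The level of mir-208a was 4924, 5642, 5446 and 3870 kFPKM in shRNA replicates 5 to 8, against 5780 and 7250 kFPKM in wild type. All 4 shRNA values were under both wild-type values, by a mean log2 difference of -0.40 (-0.87 to 0.07, adjusted p = 0.477 in limma), or -0.28 (adjusted p = 0.449) without replicate 8. Its host Myh6 was listed at 0 in 1 wild-type polyA library, so no fold is given for it. The row mir-1-2-as, an antisense gene at the mir-1a-2 locus, had 28.3, 34.7, 29.6 and 5.72 kFPKM in shRNA replicates 5 to 8, against 36.9 and 43.4 kFPKM in wild type. All 4 values were below wild type, with replicate 8 the lowest, and the difference was -0.93 (adjusted p = 0.588 in limma), or -0.37 without replicate 8 (adjusted p = 0.634). Whether its reads came from the antisense strand is not given in the labels. Over the muscle list, 5 of 12 symbols were tested, 0 passed, and the median log2 difference was 0.25 with all libraries and 0.22 without replicate 8, beside -0.03 and -0.02 over all 155 microRNAs.

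The rows of mir-21, mir-222 and mir-199b were close to wild type in replicates 5 to 7; mir-221 and mir-222 are known from the vessel wall. The row of mir-21 had 90.8, 43.7, 83.3 and 347 kFPKM in shRNA replicates 5 to 8, against 104 and 57.7 kFPKM in wild type. The first 3 lay within or just under the wild-type range, and replicate 8 was above it. Relative to wild type it was at 0.42 (-1.11 to 1.94, adjusted p = 0.799) with all libraries and -0.16 (-1.10 to 0.78, adjusted p = 0.832 in limma) without replicate 8. These values rest on 17 to 85 reads per shRNA library and on 26 and 25 reads in wild type. The row of mir-222 had 522, 370, 633 and 2330 kFPKM in shRNA replicates 5 to 8, against 305 and 514 kFPKM in wild type. Its log2 difference was 0.88 with all libraries and 0.33 (-0.35 to 1.01, adjusted p = 0.592 in limma) without replicate 8, and that of mir-221, from the same cluster, was 0.52 and 0.31. The fibroblast microRNA mir-199b, the only one of 4 in its list with enough signal to be tested, was at 0.02 and -0.17. Summed over the fibroblast markers with reads (3 of 4, mir-199a-1 at 0), the level was 1.79 to 2.01 reads per 10000 in shRNA replicates 5 to 7 and 3.38 in replicate 8, against 1.83 and 2.29 in wild type.

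**Figure D2:**
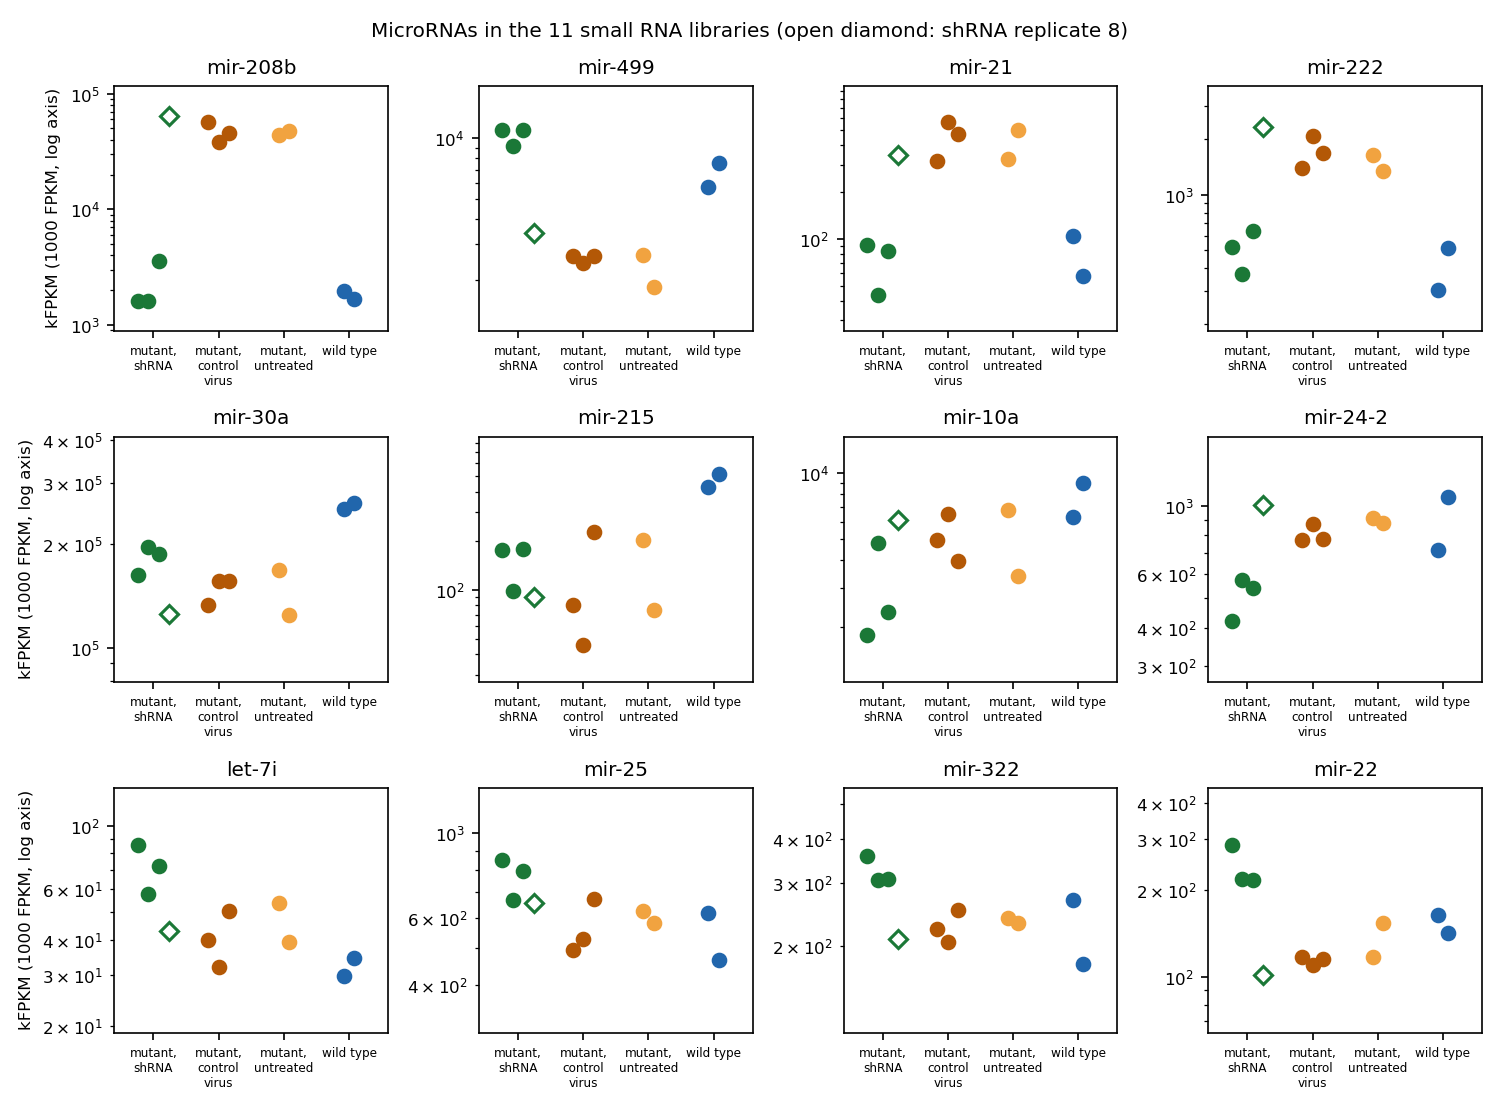
Level in kFPKM (y axis, log scale) of 12 microRNAs in each of the 11 small RNA libraries, by group (x axis: shRNA, control virus and untreated mutants, then wild type); each sign is 1 library and the open diamond is shRNA replicate 8. Replicate 8 stands with the mutants without shRNA for mir-208b, mir-499, mir-21 and mir-222, and all 4 shRNA libraries lie under wild type for mir-30a, mir-215 and mir-10a.

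Of microRNAs that were away from wild type in all 4 shRNA libraries, mir-30a had the most reads. The miR-30 family is abundant in heart muscle cells. The level of mir-30a was 162708, 195507, 187118 and 124982 kFPKM in shRNA replicates 5 to 8, against 251397 and 261321 kFPKM in wild type. All 4 shRNA values were below both wild-type values, and each rests on at least 6965 reads. The log2 difference was -0.63 (-1.09 to -0.18, unadjusted p = 0.0119, adjusted p = 0.454 in limma) with all libraries and -0.50 (-0.88 to -0.12, adjusted p = 0.246) without replicate 8. The exact permutation p was 0.133, which any microRNA without overlap has, so it adds nothing to the lack of overlap. Control virus and untreated mutants were at -0.79 and -0.83 from wild type (adjusted p = 0.0154 and 0.0258 without replicate 8, 0.0841 and 0.187 with it). With sex as a covariate and without replicate 8 these were -0.36 and -0.61 (adjusted p = 0.838 and 0.187 in limma). The sex term could not change shRNA minus wild type (-0.50), because shRNA replicates 5 to 7 and both wild-type hearts were male. The difference between shRNA replicates 5 to 7 and control virus mutants was 0.29 (adjusted p = 0.167), which did not pass. Of the miR-30 family 5 of 6 members were tested and 0 passed. The family median was -0.15 with all libraries and -0.18 without replicate 8.

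The microRNA mir-215, known from gut, kidney and liver, was also lower in all 4. It had 174, 97.7, 177 and 90.6 kFPKM in shRNA replicates 5 to 8 (55 to 237 reads), against 430 and 513 kFPKM in wild type (267 and 550 reads). The groups did not overlap, and the highest shRNA value was well under the lower wild-type value. On the log2 scale it differed by -1.86 (-3.25 to -0.47, unadjusted p = 0.0142, adjusted p = 0.454 in limma) and -1.69 (-3.20 to -0.19, adjusted p = 0.266) without replicate 8. Control virus mutants were at -2.30 (adjusted p = 0.0486 in limma without replicate 8, 0.0841 with it). Untreated mutants were at -1.93 (adjusted p = 0.144 without replicate 8). With sex as a covariate and without replicate 8 these were -0.87 and -1.21 (adjusted p = 0.843 and 0.521 in limma). The microRNA with the same seed, mir-192, had 4201, 3857, 4474 and 3196 kFPKM in shRNA replicates 5 to 8, against 4588 and 5102 kFPKM in wild type, a log2 difference of -0.31 (adjusted p = 0.477) or -0.21 without replicate 8 (adjusted p = 0.369). The row of mir-194-1, encoded beside mir-215, had a lower value too (-2.29, or -2.17 without replicate 8, adjusted p = 0.543 and 0.565 in limma), on a mean of 3.45 reads. The hepatocyte marker mir-122 was highest in wild-type library 3. It had 15, 46, 24 and 0 reads in shRNA replicates 5 to 8, against 14 and 73 reads in wild type. The liver gene Alb had 1.26, 13.4, 4.77 and 0 FPKM in the same shRNA hearts, against 2.71, 66.3 and 0.251 FPKM in wild type. The part of liver RNA in the values of mir-215 and mir-192 was not tested.

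The pair mir-10a and mir-10b, which lie in the Hoxb and Hoxd gene clusters, had the lowest values relative to wild type among microRNAs with over 1000 reads per library on average. The level of mir-10a was 1827, 4823, 2338 and 6075 kFPKM in shRNA replicates 5 to 8, against 6330 and 8957 kFPKM in wild type. That of mir-10b was 6761, 44034, 19696 and 37478 kFPKM in shRNA replicates 5 to 8, against 49692 and 60379 kFPKM in wild type. Neither overlapped wild type, and replicate 5 was the lowest shRNA library for both, with 335 reads of mir-10b against 1532 to 2853 reads in the other shRNA libraries. The log2 differences were -1.17 (-2.28 to -0.06, adjusted p = 0.477 in limma) for mir-10a and -1.34 (-2.77 to 0.09, adjusted p = 0.477) for mir-10b, or -1.46 and -1.60 without replicate 8. Control virus mutants were at -0.58 and -0.61 and untreated mutants at -0.65 and -0.32. Of the wider miR-10 family (mir-99, mir-100 and mir-125 included), 8 of 8 members were tested and 0 passed. With all libraries 1 lay above and 2 lay below wild type without overlap. Over all 155 microRNAs these numbers were 15 (9.68%) and 20 (12.9%).

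The microRNA mir-24-2 was lower in replicates 5 to 7 only. It had 419, 570, 540 and 1001 kFPKM in shRNA replicates 5 to 8, against 716 and 1065 kFPKM in wild type. Replicate 8 lay between the wild-type libraries. The log2 difference was -0.54 (adjusted p = 0.489 in limma) with all libraries and -0.79 (-1.24 to -0.33, unadjusted p = 0.00376, adjusted p = 0.235) without replicate 8. Control virus and untreated mutants lay at -0.12 and 0.03, and shRNA replicates 5 to 7 differed from control virus mutants by -0.67 (adjusted p = 0.0308 in limma) and from untreated mutants by -0.82 (adjusted p = 0.0332). Neither passed with all libraries (adjusted p = 0.369 and 0.347), nor with sex as a covariate and without replicate 8 (-0.72 and -0.85, adjusted p = 0.488 and 0.171). Untreated replicate 9, the male one, had 909 kFPKM and replicate 11 had 876. The row of mir-28 was at -0.59 from wild type (adjusted p = 0.246) and -0.60 from control virus mutants (adjusted p = 0.0451) without replicate 8, and at -0.41 and -0.42 with it (adjusted p = 0.543 and 0.315). With sex as a covariate and without replicate 8 the second value was -0.63 (adjusted p = 0.583). Mature miR-24 is also made from mir-24-1, and reads of the common sequence may be split between the rows.

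On the higher side, let-7i and mir-25 were above both wild-type libraries in all 4 shRNA libraries. The let-7 family is known as a brake on growth and developmental genes. The row of let-7i had 85.7, 57.8, 72.2 and 42.8 kFPKM in shRNA replicates 5 to 8, against 29.9 and 34.6 kFPKM in wild type. This gave a log2 difference of 0.94 (0.18 to 1.70, adjusted p = 0.467 in limma) and 1.12 (0.43 to 1.81, unadjusted p = 0.00535, adjusted p = 0.235) without replicate 8. It rests on few reads, 7 to 26 per shRNA library and 5 and 10 in wild type. The let-7 family as a whole, with 11 of 14 members tested, had a median log2 difference of -0.03, or 0.01 without replicate 8, and 0 members that passed. The row of mir-25, of the mir-106b cluster, had 849, 670, 795 and 658 kFPKM in shRNA replicates 5 to 8, against 617 and 465 kFPKM in wild type. Its log2 difference was 0.46 (0.03 to 0.90, adjusted p = 0.477 in limma), and 0.52 (0.08 to 0.96, adjusted p = 0.266) without replicate 8. Over the miR-17 clusters 7 of 18 symbols were tested, with a median of 0.24, or 0.25 without replicate 8, and 0 that passed.

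The microRNAs mir-22, mir-181c and mir-322 were above wild type in replicates 5 to 7 and not in replicate 8. The heart and muscle microRNA mir-22 had 285, 218, 217 and 101 kFPKM in shRNA replicates 5 to 8, against 164 and 142 kFPKM in wild type. Its log2 difference was 0.64 (0.19 to 1.08, adjusted p = 0.235 in limma) without replicate 8 and 0.33 (-0.47 to 1.13, adjusted p = 0.715) with it. Replicates 5 to 7 differed from control virus mutants by 1.06 (adjusted p = 0.00469), or by 1.44 with sex as a covariate (adjusted p = 0.125). The gene that gives rise to it, Mir22hg, had 22.2, 35.1, 25.4 and 55.9 FPKM in polyA RNA of the shRNA hearts, against 13.9, 17.0 and 15.7 FPKM in wild type, with no overlap and a log2 difference of 1.02 (0.43 to 1.62, adjusted p = 0.211 in limma), or 0.77 without replicate 8 (adjusted p = 0.118). Replicate 8 was thus lowest for the microRNA and highest for its host transcript. The row of mir-181c had 421, 334, 361 and 72.2 kFPKM in shRNA replicates 5 to 8, against 169 and 243 kFPKM in wild type (0.28 with all libraries, 0.87 without replicate 8, adjusted p = 0.855 and 0.246 in limma). For mir-322, of the miR-15 family, the values were 357, 306, 309 and 209 kFPKM in the shRNA libraries and 269 and 178 kFPKM in wild type, a difference of 0.40 and of 0.56 without replicate 8 (adjusted p = 0.537 and 0.246).

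The remaining microRNAs among the 10 smallest p-values in each direction had at most 45 reads in any shRNA or wild-type library. On the higher side these were mir-27a (3 to 9 reads per shRNA library, 1 and 3 in wild type), mir-532, mir-324 and mir-331, with log2 differences of 1.47, 1.96, 1.77 and 1.01 without replicate 8 and 1.38, 1.98, 1.67 and 0.75 with it. The row of mir-532 had 12 to 33 reads per shRNA library and 1 and 12 in wild type. Its difference with all libraries was 0.74 without wild-type replicate 2 and 3.22 without wild-type replicate 3. On the lower side mir-33 had 1 to 3 reads per shRNA library and 5 in each wild-type library, mir-547 had 0 to 4 and mir-134 0 to 3. The rows of mir-148b (-0.88, or -0.58 with replicate 8) and mir-362 (-1.20, or -0.98) had 11 to 25 and 2 to 9 reads per shRNA library. For mir-532 and mir-27a the mutants without shRNA lay at a like distance from wild type, 2.19 and 1.72 in control virus mutants and 2.13 and 1.31 in untreated mutants.

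**Figure D3:**
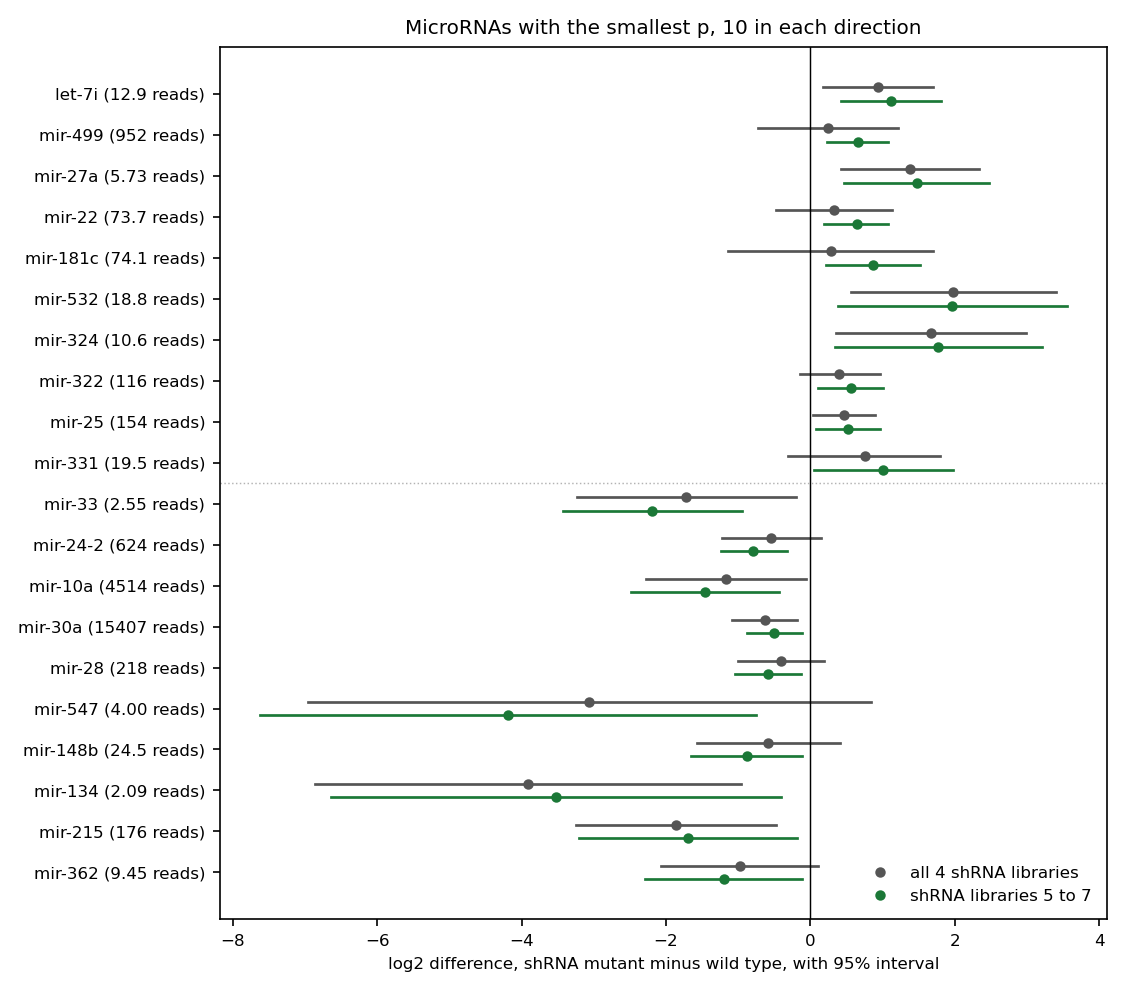
Log2 difference of shRNA mutant minus wild type with its 95% interval (x axis) for the 10 microRNAs with the smallest p in each direction without replicate 8, with their mean reads per library (y axis). Grey points and lines use all 4 shRNA libraries and green ones replicates 5 to 7; the intervals of mir-547 and mir-134, with means of 4.00 and 2.09 reads, are the widest of the 20 shown.

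Groups that did not overlap were found for 15 microRNAs higher (9.68%) and 20 lower (12.9%) in shRNA hearts with all libraries, and for 28 higher (18.1%) and 33 lower (21.3%) without replicate 8. Among the 61 microRNAs with a mean of at least 100 reads, 7 were higher and 8 lower without overlap with all libraries. These 8 were mir-30a, mir-10a, mir-10b, mir-192, mir-208a, mir-215, mir-328 and mir-805, and the 7 were let-7c-1, mir-100, mir-148a, mir-151, mir-181a-1, mir-1944 and mir-25. The size of the difference went with the read number. The median absolute log2 difference without replicate 8 was 0.236 for microRNAs with at least 100 reads, 0.344 for those with 10 to 100 and 1.25 for those under 10. A difference of over 2-fold was found for 4 of 61, 8 of 55 and 25 of 39 of them.

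**Figure D4:**
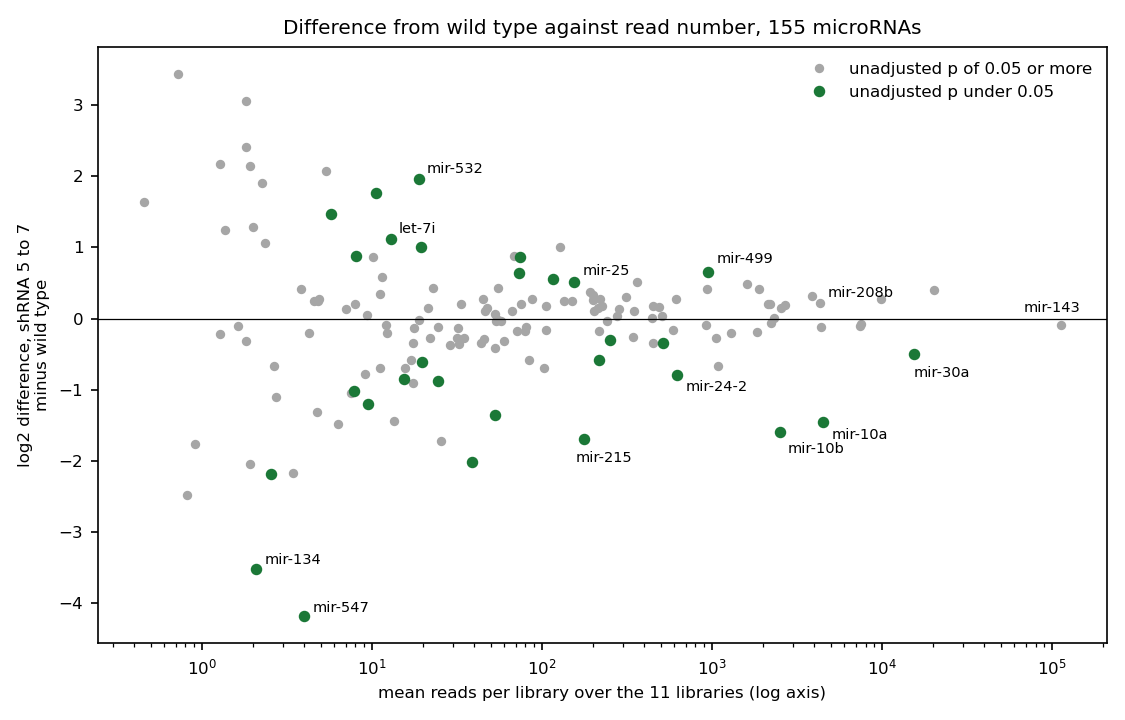
Log2 difference of shRNA replicates 5 to 7 minus wild type (y axis) against the mean reads per library (x axis, log scale); each point is 1 of the 155 microRNAs, and green points have an unadjusted p under 0.05. Differences are within 1 on the log2 scale for all but 4 of the 61 microRNAs with at least 100 reads, mir-10a, mir-10b, mir-215 and mir-1944, and spread from -4.19 upward at low read numbers.

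Lists of microRNAs by cell type gave 0 that passed in any list. Endothelial mir-126 was at 0.18 with all libraries and 0.40 (-0.08 to 0.89, adjusted p = 0.367 in limma) without replicate 8, and took 1359, 1063, 1111 and 648 of 10000 reads in shRNA replicates 5 to 8, against 900 and 800 in wild type. The red cell microRNAs mir-451 and mir-144 (2 of 3 symbols tested, median 0.04, or 0.39 without replicate 8) were high in 1 library. In sum with mir-486 they made up 118, 113, 249 and 62.6 of 10000 reads in shRNA replicates 5 to 8, against 117 and 105 in wild type, so replicate 7 had the most. Of 11 leukocyte symbols 6 were tested, with a median of 0.15 and 0.21 without replicate 8. Their marker sum was 73.3 to 80.7 of 10000 reads in shRNA replicates 5 to 7 and 55.7 in replicate 8, against 56.0 and 61.6 in wild type. Lymphocyte mir-150 had 21853, 21238, 19194 and 7978 kFPKM in shRNA replicates 5 to 8, against 15598 and 18851 kFPKM in wild type, with replicates 5 to 7 above wild type and replicate 8 below it (-0.07, or 0.27 without replicate 8, adjusted p = 0.935 and 0.58 in limma). The general leukocyte microRNA mir-142 was at 0.45 (adjusted p = 0.477) and 0.42 (adjusted p = 0.383). The smooth muscle microRNAs mir-143 and mir-145 were at -0.09 and -0.06 with all libraries and at -0.09 and 0.03 without replicate 8. Among 12 tested microRNAs of the imprinted Dlk1-Dio3 cluster (of 59 symbols) 1 was higher and 2 were lower without overlap with all libraries. Over all 155 microRNAs 15 (9.68%) were higher and 20 (12.9%) lower without overlap. The cluster median was -0.40, or -0.24 without replicate 8. In bulk hearts fewer cells of a type and less RNA per cell cannot be told apart.

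Over the microRNAs with many reads, shRNA libraries 5 to 7 lay nearer to wild type than replicate 8 and the mutants without shRNA. Over all 155 these ranges overlapped by root mean square but not by median absolute difference. Over the 61 microRNAs with at least 100 reads, the root mean square log2 difference from wild-type libraries 2 and 3 was 0.637 and 0.749 for shRNA replicate 5, 0.502 and 0.526 for replicate 6, and 0.516 and 0.602 for replicate 7. It was 1.02 and 1.08 for replicate 8. For the 3 control virus libraries it was 0.988 to 1.11 and for the 2 untreated libraries 0.925 to 1.08, while the wild-type libraries differed from each other by 0.333. Over all 155 microRNAs, of which many have few reads, it was 1.06 to 1.63 for shRNA replicates 5 to 7, 1.61 and 1.90 for replicate 8, 1.49 to 1.75 for control virus and 1.19 to 1.50 for untreated libraries, and 1.23 between the wild-type libraries. These distances carry no test.

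**Figure D5:**
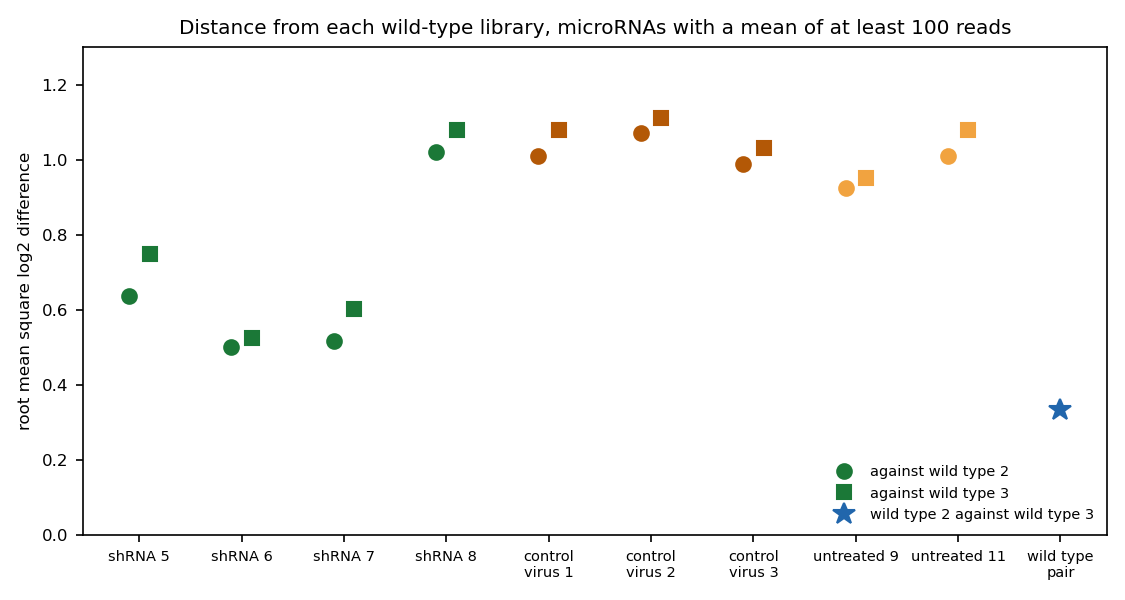
Root mean square difference of log2(FPKM + 1000) (y axis) of each mutant library (x axis) from wild-type library 2 (circles) and wild-type library 3 (squares) over the 61 microRNAs with a mean of at least 100 reads. The star is the difference between the wild-type libraries, 0.333; shRNA replicates 5 to 7 lie at 0.502 to 0.749 and replicate 8 at 1.02 and 1.08.

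Host transcripts in polyA RNA gave a readout of the same hearts that does not depend on small RNA libraries. Of 28 tested genes that hold or are transcribed with a microRNA described here or in its lists, 0 passed, with all libraries and without replicate 8, while 8 and 7 had an unadjusted p under 0.05. Over all 12980 genes tested, 14 (0.108%) passed with all libraries and 218 (1.68%) without replicate 8. An unadjusted p under 0.05 was found in limma for 2026 and 1875 of the 12980 genes. The median log2 difference of the 28 hosts was 0.40, beside 0.34 over all genes (0.36 and 0.21 without replicate 8). The host median was thus near the shift of the whole table with all libraries and above it without replicate 8. The share with an unadjusted p under 0.05 was larger among hosts than over all genes in both fits. This contrast of shares was not tested. After Mir22hg the smallest p was that of Evl, the host of mir-342, at 0.75 (adjusted p = 0.26 in limma), followed by H19 at 0.75 (adjusted p = 0.292), or 0.67 and 0.73 without replicate 8 (adjusted p = 0.173 each). Vmp1, next to mir-21, was at 0.65 (adjusted p = 0.31) and Egfl7, the host of mir-126, at 0.43 (adjusted p = 0.336), or 0.53 and 0.30 without replicate 8 (adjusted p = 0.343 and 0.561). Of 5 genes that make or load microRNAs (Drosha, Dgcr8, Xpo5, Dicer1 and Ago2), 0 passed, with a median of 0.26, or 0.18 without replicate 8. Ago2, the Argonaute protein that cuts targets, had 17.8, 9.73, 24.2 and 25.3 FPKM in the shRNA hearts, against 21.0, 21.4 and 17.7 FPKM in wild type.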

How the data were processed

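Hearts were the samples: 11 small RNA libraries and, of the same hearts and 2 more, 13 polyA libraries. The authors deposited FPKM tables; per the submitters' processing notes FastQC 0.11.2, STAR 2.40, Cufflinks 2.2.1, Cuffdiff and build mm9 were used, whose roles, and the handling of reads matching several genes, the sources used here do not give. The labels name the hearts apart, and p-values measure the spread between these hearts.

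Read numbers were recovered from the FPKM steps (280 of 280 rows above 10 FPKM; 99.58% of 2155 values within 0.1 of a whole number). Log2(FPKM + 1000) of the 155 of 568 rows with a mean of at least 10000 FPKM was fitted with limma 3.58.1 (R 4.3.3) as 4 groups over 11 libraries, eBayes with a trend, two-sided, Benjamini-Hochberg over all 155; rows nearest the limit were mir-337 (9.80 kFPKM, left out) and mir-29b-2 (10.4, kept). On this scale low values understate a fold. PolyA genes averaging 1 FPKM or more were fitted as log2(FPKM + 1). Procedures were tested on simulated data. Named are the 10 rows with the smallest p each way without replicate 8 (too few passed), a set of cardiac microRNAs and members of 27 lists; a few others were chosen after their values were seen. Members and lists were chosen with earlier results of these data known. Sequences come from RefSeq (GRCm38.p6), in which 140 of the 155 matched.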

Additional observations from a re-analysis of the deposited data

Results flagged for a closer look

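Within the shRNA group of 4 libraries, a gap between one library and the rest that exceeded Dixon's 95% limit was found for 4 of the 26 microRNAs examined. Chance gives such a gap in about 1 in 20 groups that were not selected. All 4 were among the microRNAs named for the smallest p without replicate 8, so that share does not apply to them. Replicate 8 stood apart for mir-499 (3412 kFPKM (1000 FPKM)) and mir-181c (72.2 kFPKM), in both below the other 3. Replicate 6 was highest for mir-27a (30.7 kFPKM, 9 reads). Replicate 7 was the only shRNA library with reads of mir-134 (24.4 kFPKM, 3 reads). Over all 155 microRNAs 12 (7.74%) had such a gap, and in 8 of these the library was replicate 8.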

How the results depend on the processing

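With all libraries, 17 of 19 alternatives gave 0 called microRNAs, among them other pseudocounts and filters, quantile normalization, equal totals, aligned medians, the 2-group fit, sex as a covariate and voom. Leaving out 1 library gave 0 to 2 calls: mir-134 (-5.08) without shRNA replicate 7, and mir-532 (3.22) and mir-92a-1 (4.44) without wild-type replicate 3. With replicate 8 left out throughout, 12 of 14 alternatives gave 0 and single libraries again 0 to 2, mir-134 (-5.08) and mir-582 (-2.99) without shRNA replicate 7, and mir-532 (3.20) and mir-92a-1 (4.52) without wild-type replicate 3. The cause was not tested. The rows of mir-134 and mir-92a-1 had at most 6 reads in these libraries. The row of mir-532, with 1 read in wild-type replicate 2, was at 0.74 without that library. For mir-582 the left-out shRNA replicates 7 and 8 had 300 and 231 kFPKM, against 272 and 360 kFPKM in wild type. The shRNA replicates kept, 5 and 6, had 32.8 and 45.2 kFPKM (5 and 9 reads). Aligned medians moved the median of all differences to 0.13, and to 0.17 without replicate 8.

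The 20 microRNAs with the smallest p kept their direction in every alternative that could be run. They were chosen by these same values and the alternatives reuse the same libraries, so a kept direction is no support for a difference. The sign turned for mir-21 (-0.16 without replicate 8; -0.16 to 0.83 over single libraries left out) and mir-199b (-0.17 without replicate 8, -0.10 without wild-type replicate 2, -0.11 with sex; -0.17 to 0.14). With replicate 8 left out throughout it turned for mir-208b (-0.16 without shRNA replicate 7, range -0.16 to 0.41), mir-21 (0.17 without shRNA replicate 6, 0.26 without wild-type replicate 2, 0.04 by quantiles, 0.03 by medians, range -0.58 to 0.26), mir-222 (-0.05 without wild-type replicate 2, range -0.05 to 0.70) and mir-199b (0.05 by quantiles, 0.02 by medians).

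Calls in control virus and untreated mutants were 24 and 16 without replicate 8, which enters only their spread, against 0 and 0 with it. With replicate 8, equal totals gave 3 and 0, aligned medians 14 and 1, and voom 9 and 2 of 116. Without replicate 8, quantile normalization gave 16 and 7, aligned medians 23 and 18, and sex as a covariate 1 and 2. With sex, shRNA minus control virus and minus untreated gave 1 and 3, against 37 and 20. Among hosts 0 to 2 passed when 1 library was left out (Mir22hg and Evl, without shRNA replicate 5). All polyA calls ranged from 0 (without wild-type replicate 2) to 256 (without shRNA replicate 5), against 14.

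No paired analysis was possible because the shRNA and wild-type libraries share no replicate number. A version on microRNA rows alone was not run, since 0 rows of the table were of another kind. The voom test and the alternatives without replicate 8, other than sex in shRNA against wild type, were chosen after seeing the data. Precision was limited by the number of wild-type hearts (2) and by the read numbers.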
